A study of Caenorhabditis elegans with 2 samples.

Results

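The pooled peak list of an eGFP-UNC-39 ChIP-seq experiment holds 30000 peaks, which by the authors' label include background. Of these, 324 had their summit within 200 bp of a tRNA or snoRNA gene, and these 324 regions are described here. The choice used position alone: 201 summits lay at tRNA genes and 123 at snoRNA genes of the Ensembl annotation of WBcel235 (ce11), and 0 lay at genes of both kinds. UNC-39 belongs to the SIX4/5 class of homeodomain proteins, which bind DNA, and is known for its part in the development of mesoderm and neurons. Whole L2 larvae of Caenorhabditis elegans strain OP186, of mixed sex and of unknown age, were used; the strain carries unc-119(ed3) III and the inserted construct wgIs186, which supplies the tagged protein. There is 1 group of 2 biological replicates, and no sample without the tag was analysed here. Because whole larvae were used, the cells in which a region was bound are not known. Both replicates share 1 strain and 1 stage, so the replicate lists below show only the spread between these samples.

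tRNA genes are transcribed by RNA polymerase III from a promoter inside the gene, which is made of an A box near the 5′ end and a B box nearer the 3′ end. The factor TFIIIC reads these boxes and brings TFIIIB and the polymerase to the gene. snoRNAs guide the chemical modification of other RNAs, mainly ribosomal RNA: C/D snoRNAs direct 2′-O-methylation with fibrillarin, and H/ACA snoRNAs direct pseudouridylation. Many snoRNA genes lie in introns of protein-coding host genes, and others are free-standing with a promoter of their own. In worms, as in other animals, tRNA genes occur in many identical copies, and reads from identical copies cannot be assigned to 1 of them except through their flanks.

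The sequences that the results turn on are the genes under the highest tRNA peaks, the snoRNA gene under the highest peak of all members, and the bases just before snoRNA genes with high peaks. Capitals mark the B box letters GTTCGANNC, where N is any base. The first 4 are whole genes, read 5′ to 3′ on the gene's strand. C51F7.4 lies at chrV:12303599-12303693 (+), C04A11.t1 at chrX:13665555-13665673 (+), C04A2.t1 at chrII:6853204-6853285 (+) and R04A9.t1 at chrX:410391-410462 (+). The gene W02H3.t1, at chrX:11095673-11095754 (+), has the same sequence as C04A2.t1.
C51F7.4: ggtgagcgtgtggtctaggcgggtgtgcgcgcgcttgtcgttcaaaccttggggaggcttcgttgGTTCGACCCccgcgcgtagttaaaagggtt
C04A11.t1: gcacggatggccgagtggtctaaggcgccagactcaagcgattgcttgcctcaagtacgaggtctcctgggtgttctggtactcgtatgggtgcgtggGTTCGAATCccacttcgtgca
C04A2.t1: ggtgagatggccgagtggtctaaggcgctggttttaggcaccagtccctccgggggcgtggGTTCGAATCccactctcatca
R04A9.t1: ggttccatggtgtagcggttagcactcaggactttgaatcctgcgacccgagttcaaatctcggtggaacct

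The next 9 are the 60 bases that end 1 base before a snoRNA gene, on the gene's strand. They are shown because each holds the B box letters outside the annotated gene; they were chosen after the values were seen, for a high peak and these letters. ZK546.18 is preceded by chrII:4942520-4942579 (-), M106.6 by chrII:10840257-10840316 (+), F55A11.10 by chrV:11782932-11782991 (+) and Y43F8C.22 by chrV:19643188-19643247 (-). W03C9.9 is preceded by chrII:11960838-11960897 (+), F30H5.4 by chrIII:502744-502803 (+), F32E10.10 by chrIV:7574062-7574121 (+), F12F6.11 by chrIV:11549865-11549924 (-) and T24H7.6 by chrII:6248657-6248716 (+).
ZK546.18: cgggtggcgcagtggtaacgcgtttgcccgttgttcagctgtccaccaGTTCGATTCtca
M106.6: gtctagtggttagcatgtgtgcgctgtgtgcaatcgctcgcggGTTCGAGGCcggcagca
F55A11.10: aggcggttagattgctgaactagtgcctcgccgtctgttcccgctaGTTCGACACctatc
Y43F8C.22: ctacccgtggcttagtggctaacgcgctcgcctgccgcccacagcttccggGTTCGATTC
W03C9.9: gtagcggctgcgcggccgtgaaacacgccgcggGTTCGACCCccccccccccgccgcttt
F30H5.4: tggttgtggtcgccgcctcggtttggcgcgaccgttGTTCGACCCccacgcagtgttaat
F32E10.10: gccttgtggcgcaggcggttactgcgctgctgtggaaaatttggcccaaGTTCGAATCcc
F12F6.11: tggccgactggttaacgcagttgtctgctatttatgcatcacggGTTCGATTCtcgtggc
T24H7.6: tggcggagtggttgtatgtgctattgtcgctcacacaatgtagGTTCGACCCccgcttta

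Each list gives 1 signal per peak, the authors' own enrichment value, which ran from 13.0 to 139 in the pooled list, from 7.86 to 64.9 in the list of replicate 1 and from 7.23 to 77.8 in that of replicate 2. These scales differ between lists, so a peak is placed by its signal percentile, the share of its own list with a lower signal. The lists of replicate 1 and replicate 2 held 30000 and 24978 peaks, and the position rule found 275 and 287 members in them. The authors' thresholded list, made for reproducibility between replicates, held 140 peaks. The pooled list is labelled as peaks and background and was the input to that threshold, which 6 of the 324 members passed. A gene called reached below has a summit of such a list near it, and is not by that alone a bound gene. Read counts were not part of the lists, so depth is unknown and no test between conditions exists; all values below are descriptions. Peaks of 1 list are not replicates. Of the members 32 (9.88%) had another pooled summit within 210 bp, against 4.26% of all pooled peaks, and the closest pair was 199 bp apart. Pooled peaks were 364 bp wide, so such neighbours overlap and share reads, as do some that are farther apart.

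Peaks at tRNA and snoRNA genes had higher signals than the other 29676 pooled peaks. The median signal of the members was 19.7 against 17.0 for the other peaks, a median percentile of 70.0 against 49.8. In the list of replicate 1 the medians were the 64.2 percentile for members and 49.9 for other peaks, and in that of replicate 2 they were 70.2 and 49.8. The order was thus the same in each replicate's own list. Among the pooled peaks 5% are by construction in the highest 5% of the list; of the members 62 were, or 19.1%. The highest 5% of each replicate's own list is likewise 5% of it, and it held 32 of the 275 members of replicate 1 (11.6%) and 50 of the 287 of replicate 2 (17.4%). Members were also richer in G and C, with a median GC content of 43.0% in the central 200 bp against 38.5% in other peaks. Other peaks with a GC content between the quartiles of the tRNA peaks had a median percentile of 54.2, and those between the quartiles of the snoRNA peaks one of 53.7. The tRNA and snoRNA peaks within the same GC limits stood at 71.9 and 73.6, so a difference remained at like base composition in the pooled list. In the list of replicate 1 the difference at like GC content was smaller for tRNA peaks, at 61.5 against 53.8, and absent for snoRNA peaks, at 52.2 against 53.1. In that of replicate 2 tRNA peaks were at 74.1 against 54.4 and snoRNA peaks at 75.9 against 54.0.

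At tRNA genes the median signal was 20.0, with a lowest value of 13.1 and a highest of 49.1. The median percentile was 71.7 in the pooled list, 65.8 in replicate 1 and 71.3 in replicate 2. At snoRNA genes the median signal was 19.0, with a range from 13.1 to 55.6. The median percentile was 66.0 in the pooled list, 58.4 in replicate 1 and 69.6 in replicate 2. The tRNA peaks were thus higher in all 3 lists, but by 5.71 percentile points in the pooled list, and the sign turned to 1.70 in favour of snoRNA peaks among members of like GC content. Among peaks at other non-coding genes and at no tRNA or snoRNA gene, those at miRNA genes had a median percentile of 69.1 (n = 52) and those at ncRNA genes one of 61.1 (n = 1602). Peaks at snRNA genes, which make the splicing RNAs, were at 54.0 (n = 30), those at pseudogenes at 45.6 and those at piRNA genes at 43.1. The snRNA peaks were spread widely: 8 of the 30 (26.7%) were in the highest 5% of the pooled list and 3 were in the thresholded list, larger shares than those of the members. Their shares in the highest 5% were 21.7% and 22.2% in the replicates' own lists. By median percentile in the pooled list, peaks at miRNA genes were about as high as those at tRNA and snoRNA genes. Their share in the highest 5% was 9.62%, against 20.4% for tRNA and 17.1% for snoRNA peaks. In replicate 1 it was the larger, at 17.4% against 11.6% and 11.7%, and in replicate 2 the smaller, at 5% against 19.9% and 13.2%. Members with the summit 181 to 200 bp from the gene (n = 18) had a median signal of 16.5, and the 16 peaks at 201 to 218 bp, just outside the rule, one of 17.4.

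The peaks reached 203 of 612 nuclear tRNA genes (33.2%) and 118 of 346 snoRNA genes (34.1%). The own lists reached 177 and 100 genes in replicate 1, and 184 and 103 in replicate 2. By comparison 26.5% of ncRNA genes, 21.5% of miRNA genes and 19.4% of snRNA genes had a pooled summit in reach, as did 39.0% of antisense RNA genes, 34.0% of lincRNA genes and 32.4% of pseudogenes. The median lengths of these genes differ, from 72 bp for tRNA genes to 140 bp for ncRNA genes and 761 bp for lincRNA genes, and a longer gene is reached more easily. The mitochondrial chromosome carries 22 tRNA genes and had 0 pooled peaks. The largest share by chromosome was that of snoRNA genes on chromosome II, where 30 of 71 were reached (42.3%), and the smallest that of snoRNA genes on chromosome III, with 11 of 54 (20.4%).

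Only 0.467% of pooled peaks are in the thresholded list; 6 members were, or 1.85%, 4 of them at tRNA and 2 at snoRNA genes. The highest signal of all members was at C51F7.4, a snoRNA gene within frm-7, which encodes a protein with a FERM domain, on the same strand. Its signal was 55.6 in the pooled list (rank 68) and 40.6 in the list of replicate 2 (rank 25), with no summit within 100 bp in replicate 1. In replicate 1 the peak at C51F7.4 had its summit 156 bp upstream of the gene and a signal of 10.4, at the 50.4 percentile, and the peak at the neighbouring gene C51F7.3 was at the 2.47 percentile. The peak was thus high in replicate 2 and not in replicate 1. The other snoRNA peak was at the free-standing gene M7.15, with signals of 49.5 (pooled), 17.6 (replicate 1) and 32.2 (replicate 2). That peak was in the highest 5% of each list, at the percentiles 99.7, 95.2 and 99.7.

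Of the 4 thresholded tRNA peaks, 3 were at genes for leucine tRNA. C04A11.t1, free-standing on X, had signals of 48.2 (pooled), 22.3 (replicate 1) and 27.1 (replicate 2). C04A2.t1, in an intron of C04A2.15 on chromosome II, had 47.9, 20.6 and 27.0 in the same order. W02H3.t1, free-standing on X, had 47.3, 19.7 and 26.4. These 3 peaks were above the 97 percentile in each list, and their pooled summits lay inside the gene, 11 to 22 bp from its 5′ end. In replicate 2 the summit at W02H3.t1 was 30 bp upstream of the gene. C04A2.t1 and W02H3.t1 are identical in sequence, so the reads under their summits may be shared, and their part in each value was not tested. The fourth, R04A9.t1 for glutamine, had signals of 49.1, 19.5 and 33.0 with its summit 83 bp upstream of the gene. Leucine tRNA genes were not high as a group: their 14 peaks ran from 14.1 to 48.2 and had a median percentile of 59.2, below that of all tRNA peaks. C14B9.t2, a further leucine gene, in an intron of C14B9.3, was at 41.8, 23.4 and 17.5.

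Below the threshold the next tRNA peaks were at F15B9.t1 for alanine, with a pooled signal of 43.1, and K04C2.t3 for lysine, in an intron of brd-1, with 42.7. K04C2.t3 was at the percentiles 97.7 in replicate 1 and 99.1 in replicate 2. F15B9.t1 was at 98.7 in replicate 1, and its peak in replicate 2 was at 99.3 with the summit inside the gene, more than 100 bp from the pooled summit. F15G9.t2, whose gene has the same sequence as F15B9.t1, lies in him-4, the gene of the extracellular matrix protein hemicentin, and was at 98.7 and 98.1. T21B4.t1 for isoleucine had a pooled signal of 40.3 and a percentile of 87.0 in replicate 1. In replicate 2 its peak was at 99.6, with the summit 114 bp from the 5′ end, again more than 100 bp from the pooled summit. In replicate 1 the summit given for F15G9.t2 was nearest to the neighbouring gene F15G9.t1. The peak nearest to F15G9.t2 itself was at 20.7 there. Each replicate's own list had a high peak within 200 bp of each of these 4 genes. The summits of the lists were not always close together.

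**Figure D1:**
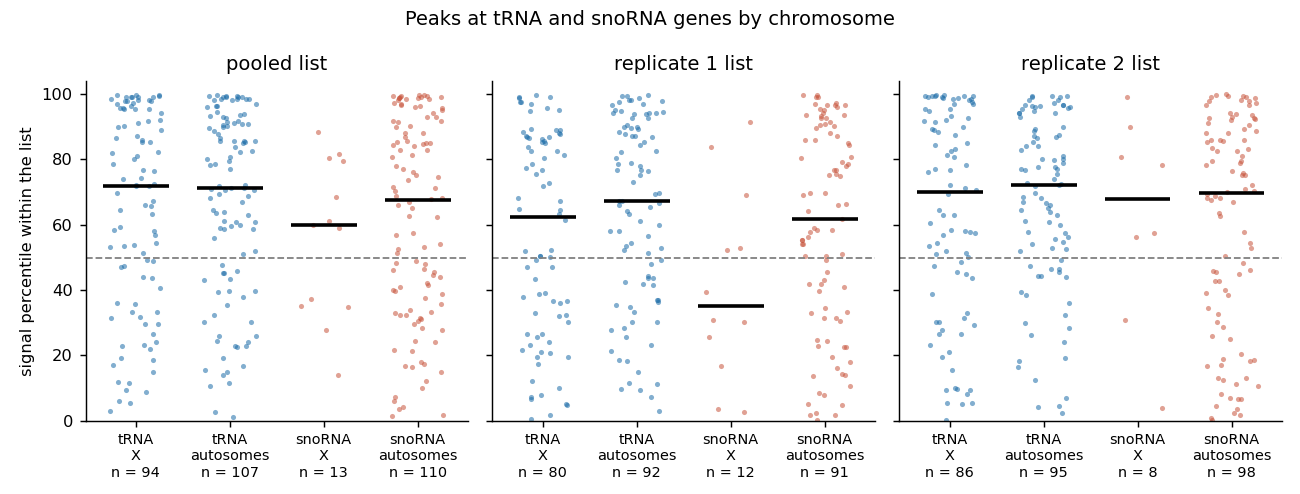
Signal percentile (vertical axis, share of the list with a lower signal) of each peak at tRNA (blue) and snoRNA (red) genes on X and autosomes, in the pooled list and in each replicate's own list; black bars are medians and the dashed line is the median of all other peaks. The tRNA medians on X and autosomes lie close together, at 71.8 and 71.2 in the pooled list, and the 13 snoRNA peaks on X hold none of the values above 90 in the pooled list.

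X carries 276 of the 612 nuclear tRNA genes. Peaks reached 102 of them (37.0%) and 101 of 336 on autosomes (30.1%); in replicate 1 the shares were 30.8% and 27.4%, and in replicate 2 33.3% and 27.4%. The share reached was higher on X in each list. It counts genes, and 1 summit can reach several, as 20 of the tRNA peaks did: 94 pooled peaks reached the 102 genes on X, and 107 the 101 on autosomes. The signal was not: the 94 tRNA peaks on X had a median percentile of 71.8 and the 107 on autosomes one of 71.2. The medians were 62.4 on X and 67.2 on autosomes in replicate 1, and 70.0 and 72.1 in replicate 2, so both replicates' own lists had the other sign. The highest 5% of the pooled list, which is 5% of all pooled peaks, held 23 of the 94 on X (24.5%) and 18 of the 107 on autosomes (16.8%). In the own lists of the replicates these shares were 11.2% and 12.0% (replicate 1) and 22.1% and 17.9% (replicate 2), so that difference did not keep its sign either. At snoRNA genes the median percentile was 60.0 on X and 67.4 on autosomes. The 13 snoRNA peaks on X had signals between 13.9 and 24.3, and none of them was in the highest 5%, against 21 of 110 on autosomes. The counts were 0 of 12 and 12 of 91 in replicate 1, but in replicate 2 the shares were nearly equal, 1 of 8 (12.5%) and 13 of 98 (13.3%). The median percentiles of snoRNA peaks on X and autosomes were 35.1 (n = 12) and 61.7 in replicate 1, and 67.8 (n = 8) and 69.6 in replicate 2. The highest snoRNA peaks on X were C34E11.20, with signals of 24.3 (pooled) and 24.9 (replicate 2) and no partner in replicate 1, and C53B7.8, with 22.1, 8.60 and 9.87.

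snoRNA genes with B box letters just before them were reached more often, and by higher peaks, than other snoRNA genes. The letters GTTCGANNC, read on the gene's strand, were found in the 100 bases before 17 of 346 snoRNA genes (4.91%), against 0.205% of protein-coding genes, 0.399% of ncRNA genes and 0.163% of tRNA genes, whose own B box is inside the gene. On the opposite strand 0.289% of snoRNA genes held them. In 15 of the 17 the match began no more than 30 bases before the gene, with a median of 15 bases. A peak reached 13 of the 17 (76.5%) and 105 of the 329 other snoRNA genes (31.9%), where 34.1% of all snoRNA genes were reached. In replicate 1 the shares were 58.8% and 27.4%, and in replicate 2 70.6% and 27.7%. Taking the highest peak at each gene, the median signal was 36.2 with the letters, with a range from 14.9 to 55.6, and 19.2 without them. The median percentile was 98.7 with the letters and 66.9 without in the pooled list, 91.1 and 60.4 in replicate 1, and 97.2 and 66.8 in replicate 2. The order was the same in all 3 lists, and the groups overlapped in each. In the list of replicate 2 all 12 values with the letters lay between 82.5 and 99.9. In the pooled list 8 of 13 were in the highest 5%, against 14 of 105. This comparison was chosen after the peak values had been seen, and the B box letters were searched with the other patterns described below.

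**Figure D2:**
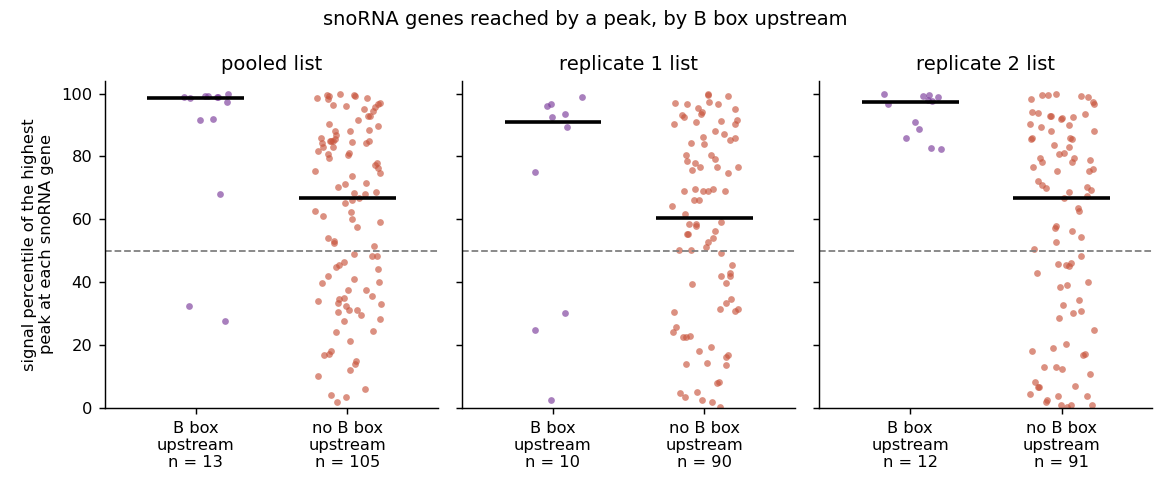
Signal percentile (vertical axis) of the highest peak at each snoRNA gene reached, for genes with (purple) and without (red) the B box letters in the 100 bases before the gene, in each of the 3 lists; black bars are medians and the dashed line is the median of peaks at no tRNA or snoRNA gene. The genes with the letters sit mostly at the top in each list, with medians of 98.7, 91.1 and 97.2, and with low values at 2 genes in the pooled list and 3 in that of replicate 1.

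The genes behind this difference were as follows. ZK546.18, in an intron of mdt-4, a Mediator subunit gene, had signals of 41.8 (pooled), 16.8 (replicate 1) and 23.3 (replicate 2), with the summit 34 bp upstream of the snoRNA gene and the letters beginning 12 bases before it. M106.6, in an intron of the condensin gene mix-1, had 39.8, 15.2 and 28.1, with the summit 54 bp upstream. F55A11.10, in an intron of F55A11.6, had 38.6, 18.5 and 17.7, with the summit 68 bp upstream. All 3 peaks were in the highest 5% of the pooled list and of that of replicate 2; in replicate 1 ZK546.18 was at the 93.6 percentile, M106.6 at 89.5 and F55A11.10 at 96.6. Y43F8C.22 had 37.2 in the pooled list and 24.5 in replicate 2. Free-standing W03C9.9 had 36.7, 22.3 and 12.6, and free-standing F30H5.4 had 36.2, 18.1 and 19.1. The summit was upstream of the gene in 11 of the 13, and the median position over all 13 was 46 bp upstream. The letters before C51F7.3 lie inside the neighbouring gene C51F7.4, printed above, and both genes share 1 peak. A low value was seen at F11A10.9, with a pooled signal of 15.3, and at Y59E1B.14, with 14.9, where a tRNA pseudogene is annotated at the match and the summit lies downstream of the snoRNA gene. Another non-coding gene is annotated at the match in 4 of the 17. A box letters, GCNNAGTNG, came before the B box letters in 6 of the 17; the 100 bases before snoRNA genes held them in 24 of 346 genes (6.94%). Of 8 hosted genes with the letters 7 were reached, with a median percentile of 99.0 against 66.0 for hosted genes without them. Of 9 free-standing genes 6 were reached, with 94.5 against 68.6. In replicate 1 the hosted genes stood at 92.7 (n = 5) against 59.0 and the free-standing ones at 75.2 (n = 5) against 69.1; with the wider letters GTTCNANNC the free-standing genes turned to 52.7 (n = 8) against 69.4 there. In replicate 2 the values were 99.0 against 48.3 for hosted and 91.1 against 70.2 for free-standing genes.

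Read by peak, the same letters were within 100 bp of the summit, on either strand, in 15 of 123 snoRNA peaks (12.2%), where 1.90% of all pooled peaks held them. These 15 peaks had a median signal of 35.8, with a range from 19.3 to 55.6, and the 108 others one of 17.8. Their median percentile was 98.6 against 57.1; for partners in replicate 1 it was 93.4 (n = 12) against 65.2, and in replicate 2 96.7 (n = 13) against 75.3. Of the 15, 10 were in the highest 5% of the pooled list, where 5% of all pooled peaks are. The GC content moved with this difference, with a median of 51.5% for the 15 and 42.2% for the others. Between the GC quartiles of the 15, 48.5% and 54.5%, the 7 snoRNA peaks with the letters had a median percentile of 99.0 and the 21 without one of 68.4. Their partners in replicate 1 stood closer together, at 93.9 (n = 6) against 87.2 (n = 9), and those in replicate 2 at 98.4 (n = 6) against 83.1 (n = 13). Peaks at no tRNA or snoRNA gene showed no such difference: 478 of them held the letters, with a median percentile of 49.9 against 49.8 without. Not all high snoRNA peaks held them. M7.15, ZK994.7 in an intron of pxn-1, F59C6.15 and W08G11.6 had pooled signals of 49.5, 43.7, 41.7 and 39.4 with no match.

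At tRNA genes 78 of 201 peaks (38.8%) held the B box letters within 100 bp of the summit, as the genes themselves carry them. Their median percentile was 80.2, against 69.8 for the 123 without. In replicate 1 the partners stood at 80.9 and 74.0 and in replicate 2 at 80.0 and 77.4, a smaller difference. The letters went with the place of the summit: 67.9% of peaks with the summit inside the gene held them, 30.8% of those upstream and 23.9% of those downstream. The pooled medians with and without them were 89.8 and 83.7 inside and 76.2 and 70.7 upstream. Downstream the sign turned, at 58.6 and 64.4. For partners in replicate 1 the medians were 83.7 and 71.9 inside, 54.5 and 78.6 upstream, and 83.4 and 66.6 downstream. In replicate 2 they were 81.5 and 83.5 inside, 92.4 and 78.4 upstream, and 69.6 and 66.7 downstream. No place kept its sign in every list. The letters were in the sequence of 66.0% of the tRNA genes reached and of 75.1% of those not reached, so the genes reached were not richer in them. The letters TGATAC are the core of the sequence bound by homeodomain proteins of the SIX4/5 class in other animals. They were found in 5 of 201 tRNA peaks (2.49%) and 4 of 123 snoRNA peaks (3.25%), against 6.69% of all pooled peaks. Pooled peaks with them had a median GC content of 37.5%, and tRNA and snoRNA peaks one of 43.0%, and these shares were not compared at like GC content. The GA repeat GAGAGAGA was found in 2.49% of tRNA and 5.69% of snoRNA peaks, against 2.46% of all pooled peaks. The C box TGATGA lies near the 5′ end of C/D snoRNAs. It was found in 18.7% of snoRNA peaks, 14.4% of tRNA peaks and 17.0% of all pooled peaks. By gene, it was in the sequence of 21.2% of the snoRNA genes reached and of 11.4% of those not reached. On X the sign was the other way, at 0% and 25%. A match of letters describes the window and is not a binding site.

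**Figure D3:**
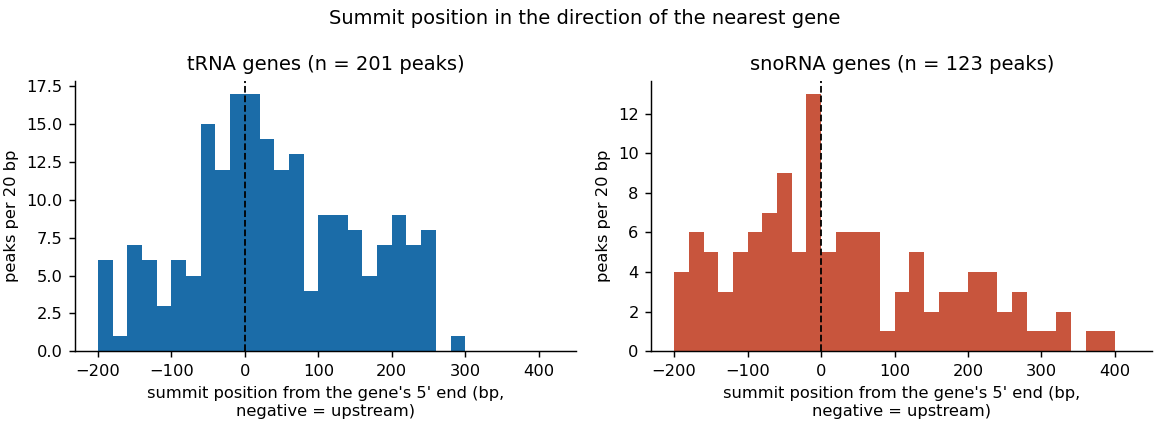
Number of peaks (vertical axis, per 20 bp) by the distance of the summit from the 5′ end of the nearest gene, counted in the gene's direction, for the 201 tRNA peaks (left) and 123 snoRNA peaks (right) of the pooled list; the dashed line is the 5′ end and negative values are upstream. tRNA summits gather around and inside the gene, where 27.9% lie, and 51.2% of snoRNA summits lie upstream.

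Summits at tRNA genes lay inside the gene in 56 of 201 cases (27.9%), while the gene takes up 15.8% of the window that the rule allows. That share was 30.8% in replicate 1 and 23.8% in replicate 2. Summits at snoRNA genes lay upstream in 63 of 123 cases (51.2%), where the upstream part is 38.3% of the window; the shares were 40.8% in replicate 1 and 51.9% in replicate 2. Height went with place. The 56 tRNA peaks with the summit inside had a median percentile of 86.2, those upstream 71.0 and those downstream 63.9. In the replicates' own lists the inside group was also the highest, at 69.3 against 64.8 and 64.4 in replicate 1, and at 79.9 against 76.1 and 64.5 in replicate 2. The upstream snoRNA peaks had a median percentile of 76.2, those inside 70.2 and those downstream 41.4. The upstream group was highest in both replicates as well, at 70.7 and 78.3, while the order of the other groups differed between them. None of the 31 downstream snoRNA peaks was in the highest 5% of the pooled list, and their signals ran from 13.1 to 24.1.

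Hosted genes, those that lie wholly inside a protein-coding gene, were reached as often as free-standing ones: 96 of 290 hosted tRNA genes (33.1%) and 107 of 322 free-standing ones (33.2%). For snoRNA genes the counts were 72 of 216 (33.3%) and 46 of 130 (35.4%). The 100 hosted tRNA peaks had a median percentile of 73.2 and the 101 free-standing ones one of 70.6. In replicate 1 the difference was larger, at 76.5 against 54.5, and in replicate 2 it was 73.9 against 68.3. tRNA peaks whose host is on the same strand (n = 54) stood at 77.3, and at 81.9 and 80.0 in the replicates' own lists. Those with a host on the opposite strand only (n = 46) stood at 72.1, and at 65.4 and 63.8. In replicate 2 the latter were thus below the free-standing peaks. For all hosted against free-standing peaks the sign was the other way at snoRNA genes. There the 73 hosted peaks had a median percentile of 65.2 and the 50 free-standing ones one of 68.2. The values were 56.6 against 69.1 in replicate 1 and 64.7 against 76.2 in replicate 2. The signs were the same in all 3 lists, but the interquartile ranges overlapped widely, from 44.9 to 93.3 for hosted and from 36.1 to 90.6 for free-standing tRNA peaks. Both signs also turned when peaks within 1000 bp of a protein-coding 5′ end were left out, to -3.78 percentile points for tRNA and 19.9 for snoRNA peaks, hosted minus free-standing. Of the hosted tRNA peaks 41.0% were that close to a protein-coding 5′ end and of the free-standing ones 28.7%; for snoRNA peaks the shares were 50.7% and 34.0%.

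**Figure D4:**
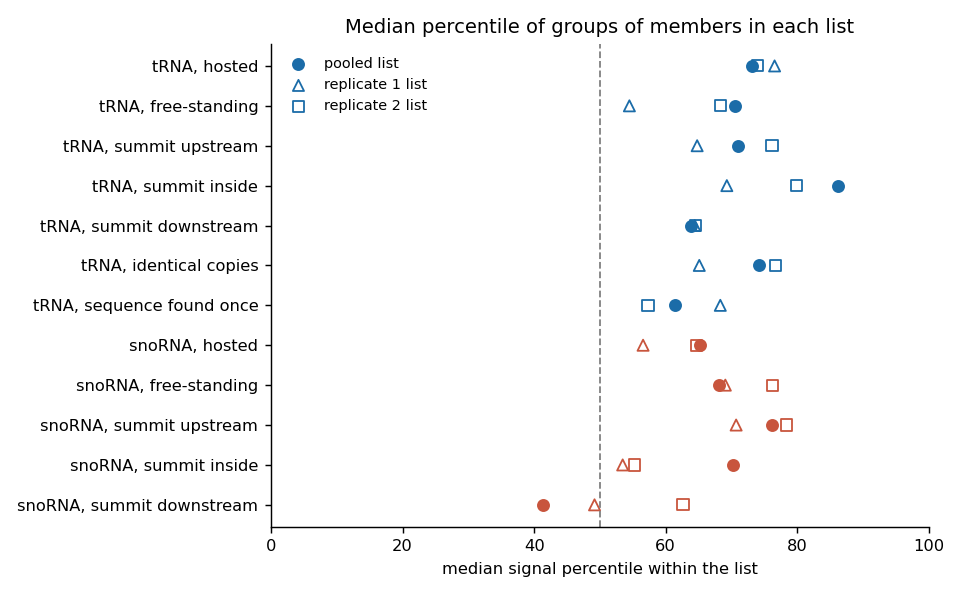
Median signal percentile (horizontal axis) of groups of tRNA (blue) and snoRNA (red) peaks in the pooled list (filled circles) and in the own lists of replicate 1 (open triangles) and replicate 2 (open squares); the dashed line is the middle of a list. Hosted tRNA peaks lie to the right of free-standing ones in each list, by 22.1 points in replicate 1 and by 5.63 in replicate 2, and upstream snoRNA peaks lie to the right of the other snoRNA positions.

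The amino acid was known from RefSeq for 607 of the 612 nuclear tRNA genes. Genes for aspartate (15 of 27, 55.6%) and proline (22 of 42, 52.4%) were reached most often among families of more than 1 gene, and those for histidine (3 of 20, 15.0%) and valine (6 of 31, 19.4%) least often. In replicate 1 the shares were 40.7%, 33.3%, 15.0% and 22.6%, in the same order of amino acids. In replicate 2 they were 48.1%, 42.9%, 15.0% and 16.1%. The places of proline and valine were not always kept. In replicate 1 threonine (38.2%), tyrosine (36.8%), glutamate (36.6%) and lysine (34.8%) genes were above proline genes. Asparagine genes, at 20% in replicate 1 and 15% in replicate 2, were below valine genes in both. Families reached often differed in signal: the 15 aspartate peaks had a median percentile of 68.3 and the 15 proline peaks one of 66.0. In the pooled list the 3 phenylalanine peaks stood at 99.1, the 3 histidine peaks at 93.9 and the 7 isoleucine peaks at 91.9. The 14 peaks at threonine genes, of which 41.2% were reached, had 87.7 and the 6 at asparagine genes 34.0. K11H12.t1, the single gene for selenocysteine tRNA, had a signal of 24.8 in the pooled list, 17.1 in replicate 1 and 8.72 in replicate 2. The 612 genes have 200 distinct sequences, and the largest identical family has 29 genes. Peaks at tRNA genes with identical copies (n = 159) had a median percentile of 74.1 and those at genes found once (n = 42) one of 61.4. The sign was the other way in replicate 1, at 65.1 against 68.3, and in replicate 2 it was 76.7 against 57.3.

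A pooled peak was said to have a partner where a summit of a replicate's own list lay within 100 bp. Of all pooled peaks 55.4% had a partner in replicate 1 and 46.2% in replicate 2; of the members 192 (59.3%) and 191 (59.0%) had one. In both lists 19% of all pooled peaks had a partner, and 103 members (31.8%) did, 68 at tRNA and 35 at snoRNA genes. In neither list 17.4% had one, against 44 members (13.6%). Partners in the highest 5% of both replicate lists were found for 0.61% of all pooled peaks and for 14 members (4.32%), 10 at tRNA and 4 at snoRNA genes. The pooled list was made from the same reads as the replicate lists, so partners are not independent of it. Among the 103 members with both partners the percentiles in the replicates had a Spearman correlation of 0.41, and among 5611 other peaks of 0.18; the points within each set share the libraries. Of the 103, 62 were above the middle of both lists, and of the 5611 other peaks 2203 were.

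**Figure D5:**
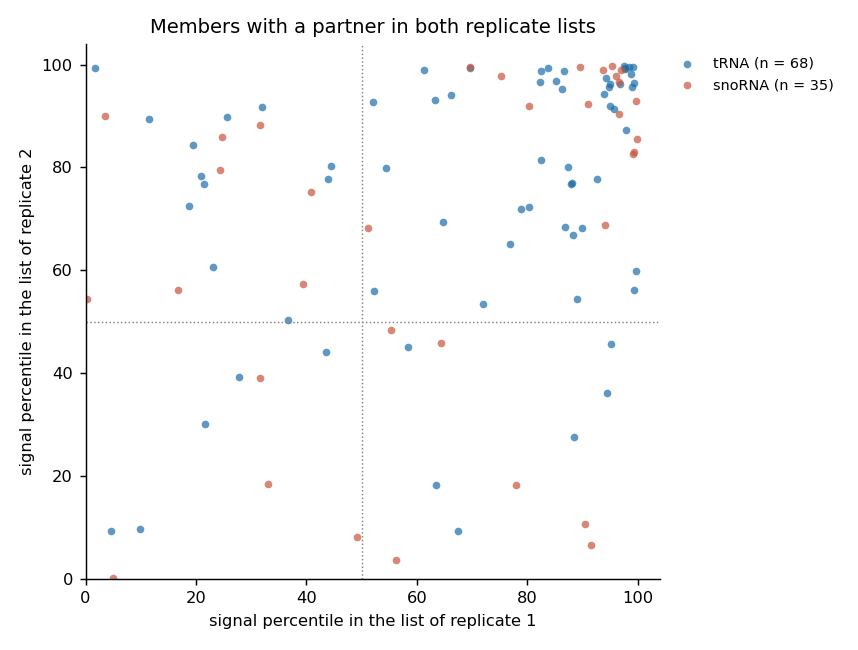
Signal percentile in the list of replicate 1 (horizontal axis) against that in the list of replicate 2 (vertical axis) for the 103 members with a partner in both lists, tRNA in blue and snoRNA in red; dotted lines mark the middle of each list. A total of 62 points lie above the middle of both lists, at the upper right, as do 2203 of 5611 other peaks with both partners, which are not drawn. Some members are near the bottom of 1 list and near the top of the other.

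The replicates disagreed on single members. C42D8.t1, an isoleucine tRNA gene on X with 19 identical genes in its family, had a pooled signal of 41.3, and stood at the 1.79 percentile in replicate 1 and at 99.3 in replicate 2. D2021.6 was at 3.51 and 90.0 and F56F4.t2, a lysine tRNA gene, at 11.5 and 89.3. In the other direction Y38F2AR.14 was at 91.5 in replicate 1 and 6.58 in replicate 2, C04A2.16, in an intron of egl-27, at 90.4 and 10.7, and T26C11.t1, for glutamate, at 88.4 and 27.7. These are values of the partner summits: in replicate 1 a further peak 163 bp downstream of the 5′ end of C42D8.t1 was at 87.1, and one 185 bp upstream of F56F4.t2 at 75.2, so at these 2 genes replicate 1 was not low throughout.

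Protein-coding genes of the same machinery were reached about as often as others. The 5′ ends of 10680 of 19985 protein-coding genes (53.4%) had a pooled summit no more than 1000 bp away, and so did those of 19 of 32 genes (59.4%) for aminoacyl-tRNA synthetases, which charge tRNAs with amino acids. Of 4 snoRNP protein genes 4 were reached, fib-1 (fibrillarin) with a signal of 16.8, nol-58 with 16.3, nol-56 with 13.3 and nola-3 with 20.7. Of 4 genes for polymerase III and its factors 2 were reached, rpc-2 with 22.3 and tbp-1 with 16.5, while rpc-1 and brf-1 had no summit in reach, nor did rtcb-1, the tRNA ligase gene. None of these genes had a thresholded peak. The median percentile of the highest peak was 61.2 for the synthetase genes, 46.0 for the snoRNP genes and 57.6 for all protein-coding genes reached.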

How the data were processed

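The authors deposited narrowPeak lists for each of the 2 replicates, for both together, and a thresholded list; per the file listings the replicate and pooled lists came from the alignments and 1 further file named only by an identifier, and the thresholded list from the other 3 by the irreproducible discovery rate. The sources used here do not give the aligner, the caller or the thresholds. The signal in column 7, as deposited by the authors, is an enrichment value per peak and is not comparable between lists, so it was ranked within each list with ties counted by 0.5. Only the ce11 lists were used. Genes came from Ensembl release 115 (WBcel235), sequence and tRNA products from RefSeq for the same assembly, with Python 3.11.15, numpy 2.4.6, pandas 2.3.3 and matplotlib 3.10.9. A member has its summit within 200 bp of a tRNA or snoRNA gene, 0 bp inside it, and is named by its nearest gene. Patterns were matched exactly, on either strand, within 100 bp of the summit; the search before snoRNA genes used the gene's strand. Placement was tested on simulated data.

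The rule for named genes took every thresholded member, the 10 tRNA and 8 snoRNA peaks of highest signal, the 3 highest on X, on autosomes, hosted and free-standing of each kind, and the 3 of largest difference between the replicates in each direction. Members, lists and patterns were chosen with earlier results of these data known. Alternatives changed the distance, the overlap rule, the list, the definition of a host, GC content and clusters, or left out the mitochondrial chromosome.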

Additional observations from a re-analysis of the deposited data

How the results depend on the processing

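Of 115 values recomputed under other settings 84 stayed within their limits, 1.5 times for counts and the spread between the replicates' own lists for percentiles; 23 moved further and 8 changed sign, and the cause was not tested. Among the 84 are the values with the mitochondrial chromosome left out, which could not change because it had 0 pooled peaks. No paired analysis was possible because there is only 1 group. Medians are in percentile points. X minus autosomes at tRNA genes, 0.667 in the pooled list, was -2.04 without replicate 1, -4.84 without replicate 2, -4.42 at 100 bp, -2.55 at 500 bp and -3.52 away from protein-coding 5′ ends, a setting chosen after the data were seen; it was 5.83 at like GC content and 5.80 for tRNA sequences found once. At snoRNA genes it was -7.47, and between -26.6 and -1.79 with 1 replicate left out. Hosted minus free-standing, 2.60 at tRNA genes, was 5.63 and 22.1 with 1 replicate left out and -3.78 away from 5′ ends. At snoRNA genes, -2.94, it was -12.5 and -11.5 with 1 replicate left out, -8.71 at 100 bp, -7.16 at 500 bp, -1.97 with 1 peak per cluster and 19.9 away from 5′ ends. snoRNA minus tRNA, -5.71, was -11.5 at 100 bp and 1.70 at like GC content. The tRNA median was 65.8 and 71.3 with 1 replicate left out, 77.6 at 100 bp, 66.9 at 500 bp and 61.4 for sequences found once. At 500 bp there were 202 snoRNA peaks and 181 snoRNA genes. Members in the highest 5% were 32 and 50 with 1 replicate left out, and 25 were in the highest 1%. The difference with the B box before snoRNA genes, 31.8, was 30.4 and 30.7 with 1 replicate left out, 36.1 at 100 bp, 31.2 at 500 bp and 30.6 with the wider letters GTTCNANNC, all chosen after the data were seen. Depth is unknown, so the lowest signals cannot be told from absence of a peak.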

Other observations

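With the wider letters GTTCNANNC, chosen after the data were seen, 33 of 346 snoRNA genes (9.54%) had a match in the 100 bases before them, against 1.43% of protein-coding genes; 22 of the 33 were reached (66.7%), and 96 of the other 313 (30.7%). The median percentile of the highest peak was 96.2 with a match and 65.6 without, 92.6 and 58.5 in replicate 1, and 87.3 and 62.6 in replicate 2. Of the genes this adds, T08B2.13 had a pooled signal of 34.6 and C04G6.12 one of 35.7. Genes with the strict letters and no pooled peak in reach were T10B9.11, C41C4.11, Y39G10AR.24 and T23G5.7. Of the miRNA genes 5 of 261 (1.92%) held the strict letters in the same window.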
